A study of Mus musculus with 6 samples.

Results

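The genes described here encode the heparin-binding growth factors pleiotrophin (Ptn) and midkine (Mdk), their receptors Ptprz1 and Alk, and the 4 syndecans (Sdc1 to Sdc4), 8 of the 19938 genes that could be tested on the arrays. The 8 were chosen by gene family and name, with the genotype difference in these same tumours already known, so every value, call and adjusted p-value of the 8 is given as a description of where the gene stands and not as evidence about the family. Each of the 8 was read by a single probe set that names no other gene, and none was removed by a filter on low values.

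Whole colon tumours were profiled in 2 groups of 3. The first group carried the genotype Dnmt1chip/c; ApcMin/+, with a hypomorphic (chip) and a knockout (c) allele of the maintenance DNA methyltransferase gene Dnmt1, and the second Dnmt1chip/+; ApcMin/+, with the chip allele and a wild-type allele. All mice therefore shared the chip allele, the ApcMin mutation that predisposes to intestinal tumours, and an F1 background of C57BL/6 and 129Sv4, and all received 2% (w/v) dextran sodium sulfate, which injures the colon lining, from 6 weeks of age, with tumours collected at 20 weeks. The series design calls the first group DNA hypomethylated and states that Dnmt1chip/+ mice have wild-type methylation levels; neither allele is described as limited to the epithelium, and methylation itself was not measured on these arrays. The sample descriptions carry the same number for all 3 Dnmt1chip/c tumours and another for a pair of the Dnmt1chip/+ tumours. The labels do not state that each tumour came from its own mouse, so the errors below measure the spread between tumours, which may be tumours of few mice.

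Pleiotrophin and midkine are the only known members of their growth factor family. Both bind the sulfated sugar chains of cell surface proteoglycans. Pleiotrophin is known to bind the chondroitin sulfate chains of PTPRZ1, a receptor tyrosine phosphatase, and to inhibit its phosphatase activity, which raises phosphorylation of substrates such as beta-catenin; both factors have also been linked to the receptor tyrosine kinase ALK. Syndecans are transmembrane proteoglycans whose heparan sulfate chains bind growth factors; syndecan-1 is typical of epithelia and plasma cells, syndecan-2 of mesenchymal cells, syndecan-3 of neural tissue and muscle, and syndecan-4 of many cell types at focal adhesions.

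The start regions of Ptn and Ptprz1 are shown because these are the 2 members with the largest genotype differences, and because the genotypes differ in the enzyme that maintains methylation at CpG dinucleotides. Both genes lie on chromosome 6, and RefSeq sequences of build GRCm38.p6 were used, from 250 bases before to 50 bases after the annotated start, read 5' to 3' on the gene's strand. Capitals mark each CG. The Ptn window is chr6:36810130-36810429 on the minus strand and the Ptprz1 window chr6:22875252-22875551 on the plus strand.

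Ptn: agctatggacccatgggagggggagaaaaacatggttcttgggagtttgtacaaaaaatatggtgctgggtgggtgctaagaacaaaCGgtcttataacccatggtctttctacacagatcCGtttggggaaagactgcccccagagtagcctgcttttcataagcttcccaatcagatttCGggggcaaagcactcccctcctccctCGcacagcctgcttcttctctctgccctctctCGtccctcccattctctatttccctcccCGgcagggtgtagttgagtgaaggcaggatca

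Ptprz1: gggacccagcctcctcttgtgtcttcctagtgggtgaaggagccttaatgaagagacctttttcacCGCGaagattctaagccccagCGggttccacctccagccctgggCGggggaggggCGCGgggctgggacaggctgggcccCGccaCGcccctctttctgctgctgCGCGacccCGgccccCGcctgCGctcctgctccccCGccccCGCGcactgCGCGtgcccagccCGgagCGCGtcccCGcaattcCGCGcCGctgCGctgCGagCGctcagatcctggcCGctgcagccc

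The Ptn window held 6 CG and the Ptprz1 window 29, against a median of 7 over 32851 promoter windows of the same length. At the Ptn count or below lay 47.9% of those windows, and at the Ptprz1 count or below 88.3%. Of the other members with a sequence in the table, Alk had 28, Sdc1 14, Sdc3 44 and Sdc4 22. Ptn had the fewest CG of the 6, and Ptprz1 the second most. Neither CTTTGAT, the letters of a TCF/LEF-type site, nor TATAAA was found on either strand in the 6 windows; 3.73% and 13.6% of all windows hold them.

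The deposited values are log2 values centred on the median of the 6 tumours for each probe set, so they give differences between tumours and no level. With 6 values the 2 in the middle are then equal in size and opposite in sign, which is why many pairs below mirror each other. The base of the logarithm is stated in no label and was inferred from the values. Tests used limma across all 19938 genes with Benjamini-Hochberg adjustment, and a gene is said to have fallen or risen where its adjusted p was under 0.05. By that rule 21.3% of all genes were lower and 10.7% higher in Dnmt1chip/c tumours, so a call of lower is common in this comparison. An exact permutation test of a single gene with 3 tumours against 3 cannot give a two-sided p below 0.1. Dnmt1 itself fell by 0.87 ± 0.06 (SE; limma, adjusted p = 3.13e-04), with groups that did not overlap; whether its probes cover the sequence altered in either allele is not known, so this does not check the genotypes.

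Of the 8 members 3 were called lower (Ptn, Ptprz1 and Mdk) and 0 higher, and 5 were not called; at an unadjusted p under 0.05 limma had 7 lower and 0 higher. As the comparison was known when the genes were chosen, nothing is read from this count against the 21.3% of all genes. The differences of 7 members were negative and only that of Alk was positive, with a median of -0.36 over the 8 against -0.0058 over all genes, both on the log2 scale. In 6 members all 3 Dnmt1chip/c tumours lay below all 3 Dnmt1chip/+ tumours, a pattern shared by 28.5% of all genes.

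**Figure D1:**
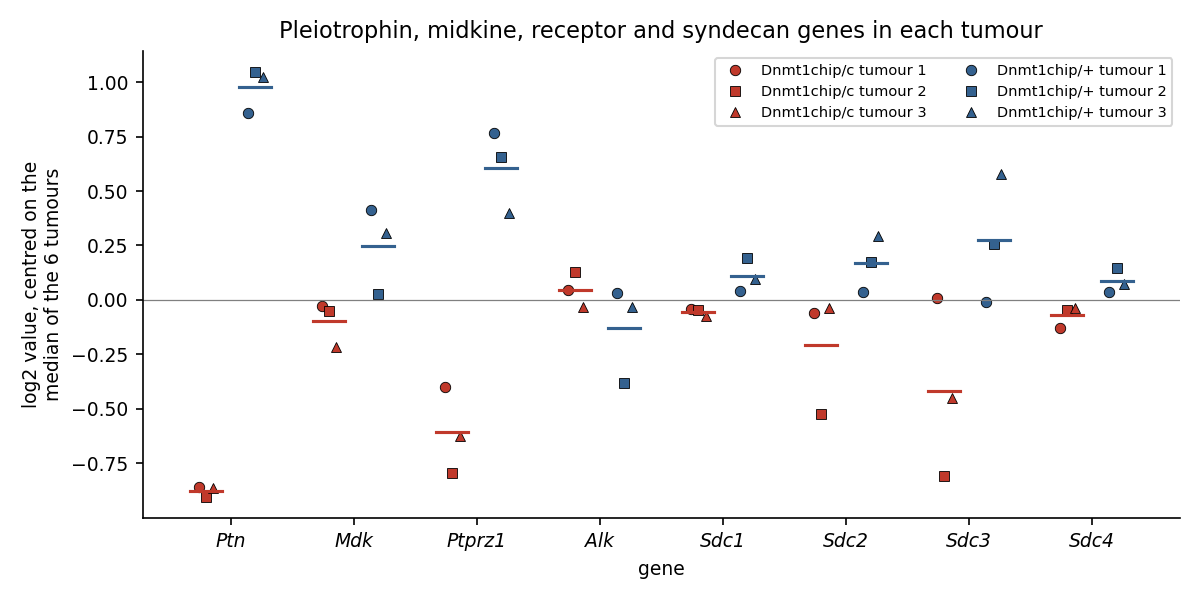
Centred log2 value (vertical axis) of each of the 8 genes in each tumour, with Dnmt1chip/c in red on the left and Dnmt1chip/+ in blue on the right of each gene; the marker shape gives the replicate number and the bar the group mean (n = 3). Ptn and Ptprz1 separate widely, with gaps of 1.72 and 0.80 between the groups, whereas Alk and Sdc3 overlap.

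Among the ligands, Ptn, a mitogen for neural, vascular and mesenchymal cells, had centred log2 values of -0.86, -0.90 and -0.86 in the Dnmt1chip/c tumours, against 0.86, 1.05 and 1.02 in the Dnmt1chip/+ tumours. All 3 tumours of the first genotype were low and almost equal, and the nearest values of the groups were 1.72 apart. The group means were -0.87 ± 0.02 (SD, n = 3) in Dnmt1chip/c and 0.98 ± 0.10 (SD, n = 3) in Dnmt1chip/+ tumours. In log2 units Ptn fell by 1.85 ± 0.07 (SE), which is 3.61-fold (limma, adjusted p = 5.04e-05). Only 42 of the 19938 genes had a more negative difference.

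Mdk, the related growth factor, which is abundant in the embryo and raised in many carcinomas, had -0.028, -0.051 and -0.21 in the Dnmt1chip/c tumours, against 0.41, 0.028 and 0.31 in the Dnmt1chip/+ tumours. The groups did not overlap, but Dnmt1chip/+ replicate 2 lay only 0.056 above the highest Dnmt1chip/c tumour. Mdk fell by 0.35 ± 0.11 (SE), 1.27-fold (limma, adjusted p = 0.0482), just inside the threshold. The adjusted p was 0.0604, 0.0912 and 0.139 without Dnmt1chip/c replicates 1, 2 and 3, and 0.151 and 0.124 without Dnmt1chip/+ replicates 1 and 3, so the call rests on all of these tumours. It was also lost after quantile normalization (0.0624) or median centring of the arrays (0.0528).

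Of the receptors, Ptprz1, the pleiotrophin-binding phosphatase best known from glia and their precursors, had -0.40, -0.79 and -0.63 in the Dnmt1chip/c tumours, against 0.77, 0.65 and 0.40 in the Dnmt1chip/+ tumours. The groups lay 0.80 apart at their closest. The means were -0.61 ± 0.20 (SD, n = 3) in Dnmt1chip/c and 0.61 ± 0.19 (SD, n = 3) in Dnmt1chip/+ tumours, and Ptprz1 fell by 1.21 ± 0.13 (SE), 2.32-fold (limma, adjusted p = 9.10e-04). The ligand Ptn and this receptor were both lower in all 3 Dnmt1chip/c than in all 3 Dnmt1chip/+ tumours, as were 28.5% of all genes. Both calls held in each of the 15 alternative settings run.

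Alk, the receptor tyrosine kinase known from the developing nervous system and from fusion oncogenes, had 0.045, 0.13 and -0.033 in the Dnmt1chip/c tumours, against 0.033, -0.38 and -0.034 in the Dnmt1chip/+ tumours. The groups overlapped, and only Dnmt1chip/+ replicate 2 stood clearly below the rest. The difference was 0.17 ± 0.11 (SE; limma, adjusted p = 0.302), with a 95% interval from -0.096 to 0.45; without that tumour it was 0.048.

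None of the 4 syndecans passed the threshold. Sdc1, the main syndecan of epithelial cells, had -0.042, -0.044 and -0.075 in the Dnmt1chip/c tumours, against 0.042, 0.19 and 0.097 in the Dnmt1chip/+ tumours. Its groups did not overlap, and they differed by -0.16 ± 0.06 (SE; limma, adjusted p = 0.0767). Sdc4, the syndecan of focal adhesions, had -0.13, -0.044 and -0.035 in the Dnmt1chip/c tumours, against 0.035, 0.15 and 0.072 in the Dnmt1chip/+ tumours. These groups did not overlap either, and the difference was -0.15 ± 0.06 (SE; limma, adjusted p = 0.0922). For both genes the spread was small and the 95% interval ended near 0, at -0.30 to -0.024 for Sdc1 and -0.29 to -0.014 for Sdc4.

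Sdc2, the mesenchymal syndecan, had -0.059, -0.52 and -0.036 in the Dnmt1chip/c tumours, against 0.036, 0.17 and 0.30 in the Dnmt1chip/+ tumours. Only Dnmt1chip/c replicate 2 was far below the others, and the difference was -0.37 ± 0.14 (SE; limma, adjusted p = 0.0867). Without that tumour it was -0.22, and with array weights -0.23.

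Sdc3 had the largest spread within the genotypes of the 8 genes (pooled SD 0.36), with 0.0073, -0.81 and -0.45 in the Dnmt1chip/c tumours, against -0.0073, 0.26 and 0.58 in the Dnmt1chip/+ tumours. Replicate 1 of each genotype met in the middle, so the groups overlapped, while the other tumours of the 2 genotypes were far apart. The difference of -0.69 ± 0.22 (SE) was the third largest of the family but lay just outside the threshold (limma, adjusted p = 0.0537). Without Dnmt1chip/c replicate 1 it was -0.91, and the adjusted p was 0.0128.

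**Figure D2:**
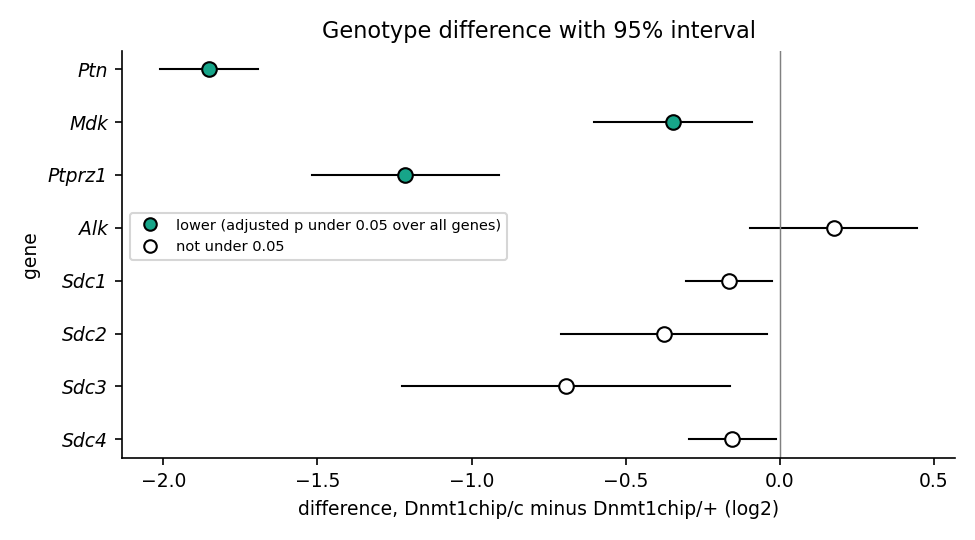
Difference of group means for each of the 8 genes, Dnmt1chip/c minus Dnmt1chip/+, on the log2 scale (horizontal axis), with 95% intervals from limma. Filled points passed an adjusted p of 0.05 over all genes; Ptn at -1.85 and Ptprz1 at -1.21 lie far from the other 6, which run from -0.69 to 0.17.

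Markers of other cell types differed between the same tumours, and in whole tumours a smaller number of cells of a type cannot be told apart from less RNA per cell. The mean centred value of 11 fibroblast markers was -0.051, -0.56 and -0.37 in the Dnmt1chip/c tumours, against 0.068, 0.27 and 0.43 in the Dnmt1chip/+ tumours; 7 were lower, among them Pdgfrb (-1.22), and 1, Fap, was higher. The mean of 9 macrophage markers was 0.067, -0.78 and -0.45 in the Dnmt1chip/c tumours, against -0.021, 0.17 and 0.45 in the Dnmt1chip/+ tumours, with 4 lower and 0 higher. Both means placed Dnmt1chip/c replicate 1 beside Dnmt1chip/+ replicate 1, as Sdc3 did. In Ptn the same 2 tumours were also the middle ones, but 1.72 apart, and Dnmt1chip/c replicate 1 was at -0.86, like the other tumours of its genotype. Single markers within the lists differed in this as well. Pdgfrb was at -0.31 in Dnmt1chip/c replicate 1 and 0.31 in Dnmt1chip/+ replicate 1, whereas the macrophage marker C1qa was at 0.081 and -0.081.

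The other marker lists were smaller in their shift or moved the other way. Of 11 epithelial markers 9 were higher and 0 lower, with list means from 0.32 to 0.56 in Dnmt1chip/c and from -0.67 to -0.34 in Dnmt1chip/+ tumours. The means were pulled by Krt20 (3.52) and Cdx2 (3.49), and the median difference of the list was 0.38. Epcam (0.064) and Krt18 (-0.017) were not called, and the call of Cdh1 (0.18) was lost in 7 of 14 alternatives. Smooth muscle markers were lower in 3 of 8 and endothelial markers in 5 of 9, with Tek alone higher. Among the enteric glial markers Fabp7 was lower and Erbb3 higher, and the other 5 of 7 were not called, including Sox10 (-0.042) and S100b (0.090); of 9 enteric neuron markers Tubb3 alone was called, as lower. No plasma cell marker was called (0 of 9 in limma), a list of interest beside Sdc1, which those cells carry, and B cell markers had 1 call of 7, Ms4a1 as higher, and T cell markers 0 of 6; at an unadjusted limma p under 0.05 the plasma cell list had 1 lower and the T cell list 1 higher. As the values are centred, no marker can be said to be absent. Few genes of these lists were read as at 8 or above in every tumour before centring. They numbered 1 for glia, 0 for neurons, 3 for plasma cells, 0 for B cells and 1 for T cells. The lack of calls in these lists therefore says little. The part of any of these cell types in the results of the 8 genes was not tested. The lower fibroblast calls numbered 3 without Dnmt1chip/c replicate 3 and 4 without Dnmt1chip/+ replicate 2 or 3, the lower endothelial calls 2 or 3 without those tumours or Dnmt1chip/c replicate 2, and the lower macrophage calls 7 without Dnmt1chip/c replicate 1 and 0 without any other single tumour. The higher glial call, Erbb3, was lost without Dnmt1chip/c replicate 3 or any one Dnmt1chip/+ tumour, and the B cell call, Ms4a1, without Dnmt1chip/+ replicate 1. Without Dnmt1chip/c replicate 1 the plasma cell and T cell lists each had 1 lower call, the T cell list had 1 higher without Dnmt1chip/c replicate 3, and the neuron list had 2 lower without Dnmt1chip/+ replicate 2 and 1 higher without Dnmt1chip/+ replicate 3.

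**Figure D3:**
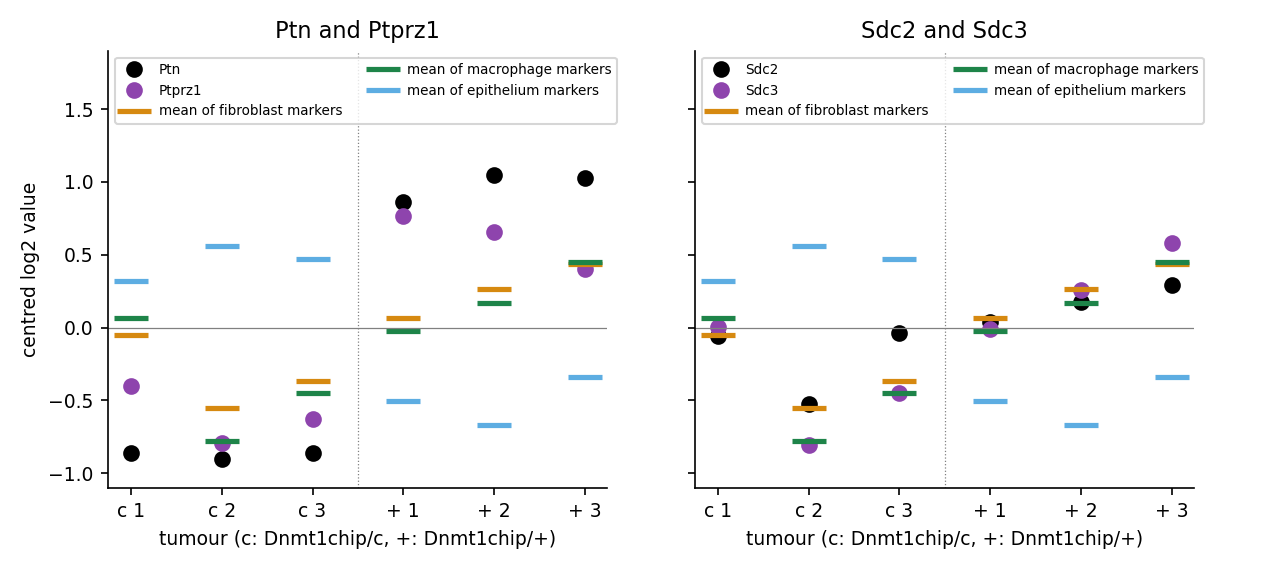
Centred log2 value in each tumour (horizontal axis, Dnmt1chip/c on the left and Dnmt1chip/+ on the right) of Ptn and Ptprz1 in the left panel and Sdc2 and Sdc3 in the right panel, as points, beside the means of the fibroblast, macrophage and epithelial marker lists, as bars. In Dnmt1chip/c replicate 2 Sdc3 was at -0.81, the macrophage mean at -0.78 and the fibroblast mean at -0.56. In Dnmt1chip/+ replicate 2 Sdc3 was at 0.26, the macrophage mean at 0.17 and the fibroblast mean at 0.27. Ptn was near -0.9 in all 3 Dnmt1chip/c tumours. The part of any cell type in these values was not tested.

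The genes around the 8 were then taken from 8 lists of pathway genes, 109 measured of 110. Of these 38 were lower and 6 higher, 34.9% and 5.50%, and their median log2 difference was -0.14. Over all genes the shares were 21.3% and 10.7%. Lower calls were commoner in a separate fit of only the genes read as at 8 or above in every tumour before centring. That fit has its own adjustment, so its calls are not a subset of those of the main fit. In it 35 of 78 list genes were lower and 9 higher, against 3816 and 1662 of 10142 genes in all. The lists were chosen with earlier results of these data known, so nothing is read from the shares. In the 5 lists with 0 higher genes in limma, an unadjusted p under 0.05 gave 2 higher receptors or partners, 1 other proteoglycan, and 0 in chain synthesis, chondroitin sulfate and shedding. The receptor list had 1 higher call without Dnmt1chip/c replicate 3 or Dnmt1chip/+ replicate 3, and chain synthesis 1 without Dnmt1chip/c replicate 1.

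Among 18 other receptors and partners of the ligands 4 were lower and 0 higher. Notch2, a receptor reported to bind midkine, fell by 0.78 ± 0.13 (SE; limma, adjusted p = 0.00530), the integrin subunit gene Itgb3 by 0.76 and Vcan, a chondroitin sulfate proteoglycan of the matrix, by 0.60. Lrp8, a lipoprotein receptor, fell by 0.28; this call was lost in 7 of 14 alternatives. The midkine receptor gene Lrp1 differed by 0.38 (adjusted p = 0.0680, limma), nucleolin (Ncl) by -0.17 and neuropilin-1 (Nrp1) by -0.30, and none passed. The ALK-related kinase gene Ltk and the genes of the ALK ligands, Alkal1 and Alkal2, differed by 0.052, 0.060 and 0.073, with limma adjusted p-values of 0.631, 0.570 and 0.419.

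Of 10 substrates and partners of PTPRZ1, 2 were lower and 2 higher. Fyn, a Src-family kinase and PTPRZ1 substrate, fell by 0.73 ± 0.14 (SE; limma, adjusted p = 0.00744) and Ctnnb1, which encodes beta-catenin, fell by 0.26. The scaffold gene Magi1 rose by 0.35 and the kinase gene Src by 0.22. The calls of Ctnnb1 and Src were lost in 5 and 6 of 14 alternatives. The list held 1 lower and 1 higher gene without any one Dnmt1chip/+ tumour or without Dnmt1chip/c replicate 3, and 1 higher without Dnmt1chip/c replicate 2.

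Intracellular partners of the syndecans gave the 2 largest increases of all the pathway lists. Sdcbp2, which encodes syntenin-2, a PDZ protein related to the syndecan-binding syntenin-1, had 0.65, 1.15 and 1.00 in the Dnmt1chip/c tumours, against -0.70, -0.85 and -0.65 in the Dnmt1chip/+ tumours. Prkca, the gene of the protein kinase C alpha that syndecan-4 binds and activates, had 0.60, 1.14 and 1.15 in the Dnmt1chip/c tumours, against -0.69, -0.82 and -0.60 in the Dnmt1chip/+ tumours. The groups were far apart for both, and each rose by 1.67 on the log2 scale (SE 0.13 for Sdcbp2 and 0.15 for Prkca), 3.18-fold and 3.17-fold (limma, adjusted p = 3.79e-04 and adjusted p = 5.95e-04). Sdcbp, the gene of syntenin-1 itself, differed by -0.029 ± 0.06 (SE; limma, adjusted p = 0.767). Trappc4 and Nudt16l1, whose products bind the cytoplasmic tails of syndecan-2 and syndecan-4, fell by 0.31 and 0.38, and the remaining 9 of 13 were not called.

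Of 12 other proteoglycans that carry heparan sulfate 5 were lower and 0 higher. Gpc1 and Gpc6, glypicans anchored to the membrane by a lipid, fell by 1.09 ± 0.11 (SE; limma, adjusted p = 7.49e-04) and 0.95 ± 0.18 (SE; limma, adjusted p = 0.00737). Gpc1 had -0.38, -0.60 and -0.75 in the Dnmt1chip/c tumours, against 0.55, 0.38 and 0.61 in the Dnmt1chip/+ tumours, and its groups were well separated. Gpc2 fell by 0.38 and Hspg2, the perlecan gene, by 0.29. The calls of Gpc2, Hspg2 and Col18a1 (-0.38, the collagen XVIII gene) were lost without Dnmt1chip/c replicate 2 or 3 or Dnmt1chip/+ replicate 2 or 3, each of which left 2 lower.

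The enzymes that build the sugar chains were lower in several cases. Of 11 genes of linker and heparan sulfate chain synthesis 6 were lower and 0 higher, with a median difference of -0.39. Ext1, a subunit of the polymerase that elongates heparan sulfate, had -0.41, -0.45 and -0.36 in the Dnmt1chip/c tumours, against 0.53, 0.38 and 0.36 in the Dnmt1chip/+ tumours. It fell by 0.83 ± 0.07 (SE; limma, adjusted p = 4.26e-04), while Ext2, the gene of its partner subunit, differed by -0.13 (limma, adjusted p = 0.120). Extl3, which starts heparan sulfate chains, fell by 0.75, B3galt6 of the linker by 0.61 and Xylt2, which adds the first sugar, by 0.39.

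Of 19 genes that modify or remove heparan sulfate 6 were lower and 2 higher. Hs3st1, a 3-O-sulfotransferase, rose by 0.95 ± 0.10 (SE; limma, adjusted p = 0.00102) and Sulf2, an endosulfatase that removes 6-O-sulfate outside the cell, by 0.70 ± 0.14 (SE; limma, adjusted p = 0.00854). The sulfotransferase genes Hs6st2 and Hs3st3b1 fell by 0.54 and 0.51. Without Dnmt1chip/+ replicate 2 the lower calls numbered 3. Chondroitin sulfate genes were lower in 5 of 15 with 0 higher. Chst11, a chondroitin 4-O-sulfotransferase, fell by 1.13 ± 0.14 (SE; limma, adjusted p = 0.00144), Chst14 of dermatan sulfate by 0.64, Csgalnact1, which starts the chains, by 0.62 and Chsy1, a chain polymerase, by 0.49.

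In the main fit the proteases known to shed syndecans and their inhibitors had the largest share of lower genes. There, 8 of 11 were lower with 0 higher, against 21.3% and 10.7% of all genes, and the median difference was -0.70. The lower calls numbered 10 without Dnmt1chip/c replicate 1 and 6 without any other single tumour. That equals the 6 of 11 of heparan sulfate chain synthesis, so the ranking was then lost. The lists also differed in how many genes were read as at 8 or above in every tumour before centring. These were 10 of 11 here and 11 of 18 among the receptors. In the fit of only such genes 3816 of 10142 were lower, so nothing is read from the ranking. The lower calls of Adam10 and Timp3 were lost in 8 and 7 of 14 alternatives. The gelatinase gene Mmp9 fell by 1.37 ± 0.22 (SE; limma, adjusted p = 0.00378) and the membrane-type metalloproteinase gene Mmp14 by 0.58, but the inhibitor gene Timp1 also fell, by 1.27 ± 0.16 (SE; limma, adjusted p = 0.00179). Adamts4, an aggrecanase, fell by 0.70. Mmp7, the matrilysin gene, whose product sheds syndecan-1 in mouse lung, differed by 0.064 (limma, adjusted p = 0.574). The fibroblast and macrophage means given above were lower in Dnmt1chip/c replicates 2 and 3; their part in these lists was not tested.

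**Figure D4:**
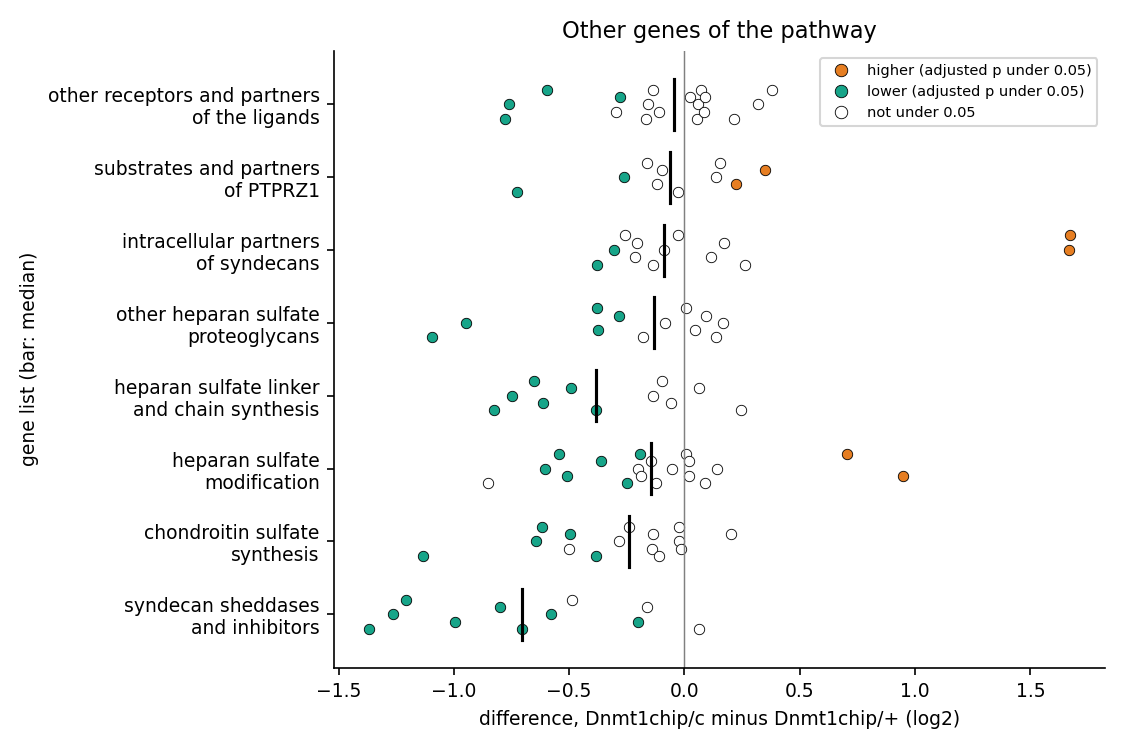
Difference, Dnmt1chip/c minus Dnmt1chip/+, on the log2 scale (horizontal axis) for every measured gene of the 8 pathway lists, 1 point a gene, with a bar at each list's median; filled points passed an adjusted p of 0.05 over all genes. Sdcbp2 and Prkca stand alone at 1.67, and the medians run from -0.70 for sheddases and inhibitors to -0.044 for receptors.

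By likeness of pattern, measured as Pearson's r over the 6 tumours against 3173 other genes with an SD of at least 0.3, the 5 genes closest to Ptn were H2az2, Selenon, Klk15, Cirbp and Tmem150c, with r from 0.998 to 0.999. Those closest to Ptprz1 were Zbed3, Tspan5, Pcdhb16, Zfp346 and Rnf157, with r from 0.997 to 1.00. All 10 were called lower, with log2 differences from -2.53 (Klk15) to -0.55 (Zfp346). That follows from picking them for their likeness to 2 genes called lower, so nothing is read from it. The 6 tumours form 2 genotype groups, so these r values describe a likeness that includes the group difference.

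The neighbours of both genes on chromosome 6 were looked at as well, as the nearest 3 measured genes on each side, a choice made after the values of Ptn and Ptprz1 were seen. Around Ptn, 1 of 6 was lower, Creb3l2 (-0.55), and the adjacent genes Mir490 and Dgki differed by 0.12 and 0.13 and were not called. Around Ptprz1, Wnt16 (-0.71) and Fam3c (-0.47) were lower, Cadps2 (0.58) was higher and 3 were not called. The differences of Ptn and Ptprz1 were larger in size than those of all 12 neighbours. These genes were picked as the members with the largest genotype differences, so nothing is read from that.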

How the data were processed

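RNA of 6 whole mouse colon tumours was biotin-labelled and hybridised to arrays, per the labels' protocols; the array named in part of the descriptions is the Affymetrix MoGene type, version 1.0. The deposited values are log2 values, already centred by the authors on each probe set's median (100.0% of 28856 rows had a median of 0 within rounding). How arrays were normalized and summarised, and the log base, are not stated in any source used here, and no detection call was used. The 21789 probe sets with 1 gene symbol were averaged to 19938 genes, of which 19856 matched RefSeq (GRCm38.p6) by Entrez number; 1621 probe sets with several symbols and 5446 with none were left out.

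The 8 members and the lists were chosen with earlier results of these data known. The main fit was limma 3.58.1 in R 4.3.3 (lmFit, eBayes, 3.02 prior degrees of freedom, two-sided), with all 6 tumours, no filter and no block, adjusted over all genes; it was tested on simulated data. Named pathway genes are the up to 4 called genes of each list with the smallest p, with 6 receptors and ligands in any case. Ext2, Sdcbp, Col18a1, Mmp7, Adam10, Timp3, Fap, Tubb3, Ms4a1, Sox10, S100b, Krt20, Epcam, Krt18, Cdh1 and the chromosomal neighbours were named after their values were seen. Same-numbered tumours did not deviate together (r = -0.29, -0.31 and -0.22 over genes), so the numbers were not taken as pairs. Promoter sequences were found for 6 of 8 members. 6 arrays limit the precision; arrays carry no read depth.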

Additional observations from a re-analysis of the deposited data

How the results depend on the processing

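Across 15 alternatives (14 where a gene was filtered out), Ptn and Ptprz1 stayed called and lower, with differences from -2.28 to -1.76 and from -1.37 to -1.12; the other members kept their sign in every one, Alk positive. The members called lower numbered 3, between 2 and 3 without 1 tumour, and 7 with the description number as a random block. The estimated correlation of that block was negative (-0.17), which shortens the error. All 3 Dnmt1chip/c tumours share a description number, so in that group the block cannot be separated from genotype. Nothing is therefore read from the 7. Lower pathway genes numbered 28 to 41 and higher ones 5 to 8 without 1 tumour, and the higher ones were 11 with that random block, 12 with array weights and 11 under quantile normalization. Over all genes the calls ran from 2792 to 4270 lower and from 1407 to 2323 higher without 1 tumour, the lowest counts being those without Dnmt1chip/+ replicate 1. There were 2319 lower and 1192 higher at an adjusted p of 0.01. With the replicate block, 2714 genes and 2 members (Ptn and Ptprz1) were called lower; the titles' numbers do not pair the tumours by the check made. The step size of the values (the coarser step in 47.5% of probe sets) was read as a sign that a gene was at 8 or above in every tumour before centring; restricting the fit to such genes removed Mdk, Alk and Sdc3. Centring arrays on their medians and quantile normalization shifted the median difference by 0.019 and 0.030. The causes of these changes were not tested. Signal over background is unknown.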
